A study of Mus musculus with 32 samples.

Results

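The 10 genes described here encode members of the AP-1 and Egr families of immediate early transcription factors: Fos, Fosb, Fosl2, Jun, Junb, Jund, Atf3, Egr1, Egr2 and Egr3. They are listed by name, with no threshold on a measured value, and are 10 of 46517 genes in a table of bulk RNA sequencing. The samples are mouse Pmel CD8 T cells, which carry a transgenic receptor for a melanocyte antigen and were sorted as CD8+Thy1.1+ cells. The 32 libraries form 8 groups of 4, all labelled C57BL/6, age 16 weeks and melanoma-associated vitiligo, the naive libraries included. Naive cells came from spleen, the cells labelled TDLN_D12 came from a lymph node (day 12 lymph node below), and the cells labelled Mem_LN came from a lymph node (lymph node memory below). The other groups came from spleen, tumor (labelled TIL), skin, lung and liver. The design text gives 45 days after tumor surgery for draining lymph node, skin, lung and liver, and the lymph node memory group was taken as that node. For naive, spleen and tumor samples no time is stated in the sources used here.

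The labels' protocols give a different way of freeing cells for each tissue. For lymph nodes it was mechanical. Skin was minced and kept at 37 °C for 45 minutes with collagenase IV at 3 mg/mL and DNase I at 0.2 mg/mL. Lung was kept at 37 °C for 30 minutes with Liberase, which the labels give as 16.7 mg/mL, and DNase I at 0.2 mg/mL. Liver was pressed through a mesh and kept at 37 °C for 40 minutes with collagenase IV at 0.6 mg/mL and DNase I at 0.1 mg/mL. Percoll gradients followed for lung and liver. How spleen and tumor were taken apart is not stated. Lymph node, skin, lung and liver are each given 1 procedure, so tissue and digestion cannot be told apart in comparisons between them.

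Immediate early genes are transcribed within minutes of a signal without new protein synthesis, and their transcripts are short-lived. Fos proteins bind DNA as AP-1 only in pairs with a Jun protein, and Atf3 is a related leucine zipper factor that can pair with Jun proteins and often represses. Egr proteins are zinc finger factors induced through the MAP kinase pathway. In T cells both families rise after the antigen receptor is engaged, and warm enzymatic dissociation of tissue is a known inducer of the same genes.

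Values are in TPM, corrected for gene length and scaled to 1 common sum per library, so levels of different genes can be compared. Read counts were not part of the table, so the depth is unknown and no counting interval can be given. Differences are of mean log2(TPM + 1) from limma fitted over 19738 genes, with standard errors (SE), and a gene was called at a Benjamini-Hochberg adjusted p under 0.05. On this scale the change of genes near 0 is understated. The labels do not say that the libraries came from separate animals, so each p-value rests only on the spread among these samples, which may be technical.

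The libraries differed in how much of their RNA came from T cells. The summed level of 16 T cell identity genes, CD8 and CD3 chains among them, ranged from 38200 to 44220 TPM in naive cells, 17930 to 37310 in lymph node memory, 5650 to 34670 in skin, 15980 to 25870 in lung and 3640 to 28380 in liver. It was under 0.5 of the median over libraries in 6 libraries: spleen replicate 4, tumor replicate 4, skin replicate 4 and liver replicates 2, 3 and 4. Hepatocyte genes summed to 851.4 to 34070 TPM in liver, with none of the 10 at 0 in all 4 libraries, and to 4.03 to 64.28 TPM in lymph node memory. Myeloid genes summed to 2026 to 17220 TPM in liver, 399.7 to 7299 in skin and 366.6 to 906.8 in lymph node memory. In lung, replicate 3 stood apart with 48860 TPM of B cell, 11770 of myeloid and 11100 of hepatocyte genes, and replicate 4 had 13370 and 9937 TPM of B cell and myeloid genes. Lung replicates 1 and 2 had 3084 and 1003 TPM of B cell genes and 1745 and 2248 of myeloid genes. Keratinocyte genes reached 190.2 to 3533 TPM in skin, with none of the 11 at 0 in all 4 libraries. In bulk samples fewer cells of a type and less RNA per cell cannot be told apart, and many of these other cells also transcribe AP-1 and Egr genes.

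The DNA next to the start of a few members is shown. Of the 10 genes 6 were called higher in both skin and liver than in lymph node memory, and Jund, Egr2 and Egr3 in neither. RefSeq promoter windows, which surround a start site on GRCm38.p6, the assembly of mm10, were found for 8 of the 10 genes. Fos had the largest difference between skin and lymph node memory, and Junb had the highest level in skin. The 120 bases before the start were chr12:85473770-85473889 on the plus strand for Fos and chr8:84978749-84978868 on the minus strand for Junb. Capitals mark a match to TATAAA, the core promoter box, which ended 28 bases before the start of Fos. The 120 bases shown for Junb had no TATAAA. Its RefSeq window did hold a match, at positions 0 to 5 counted from the RefSeq start. The gene position of Junb used below starts further downstream, at chr8:84978718 on the minus strand. The match thus lies before that start, and Fos and Junb differ here only by the RefSeq start.
Fos: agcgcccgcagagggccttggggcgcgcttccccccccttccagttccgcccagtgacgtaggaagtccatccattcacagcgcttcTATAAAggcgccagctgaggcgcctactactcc
Junb: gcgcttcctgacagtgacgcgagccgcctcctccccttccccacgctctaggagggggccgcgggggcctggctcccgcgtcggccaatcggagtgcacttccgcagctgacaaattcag

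A CArG box, the binding motif of serum response factor, was searched on both strands and lay in 1.63% of all 32851 promoter windows. Of the 8 members in the table only Egr2 had it, in 4 of its 5 windows. Jund, like Egr2 called in neither tissue, did not have it, and no window of Egr3 was found. The Jund window surrounds a RefSeq start next to chr8:70697738, upstream of the gene start used below, chr8:70698949. The sites were at chr10:67537787-67537816 and chr10:67537484-67537513, both on the plus strand, and capitals mark the box. Both lie inside the Egr2 gene as positioned below, which starts at chr10:67535475. The Egr2 window nearest that start had no box. A motif bound by Egr proteins, GCGNGGGCG, lay in 5.55% of windows and, among members, in that of Fosb (chr7:19310076-19310105, minus strand) and that of Fosl2 (chr5:32136383-32136412, plus strand). It is in capitals in both. The Fosl2 site also lies inside its gene as positioned below, which starts at chr5:32135801.
Egr2 first site: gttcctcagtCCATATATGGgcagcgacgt
Egr2 other site: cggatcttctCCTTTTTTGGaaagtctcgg
Fosb: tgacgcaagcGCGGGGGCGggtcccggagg
Fosl2: ccggctgcgcGCGGGGGCGgaagggcgcgc
The AP-1 motif TGANTCA (7.81% of windows) and the CRE TGACGTCA (1.79%) were in none of the 12 windows of these 8 members. A match of letters is a description and not a measured site, and these windows hold only the bases next to a RefSeq start.

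**Figure D1:**
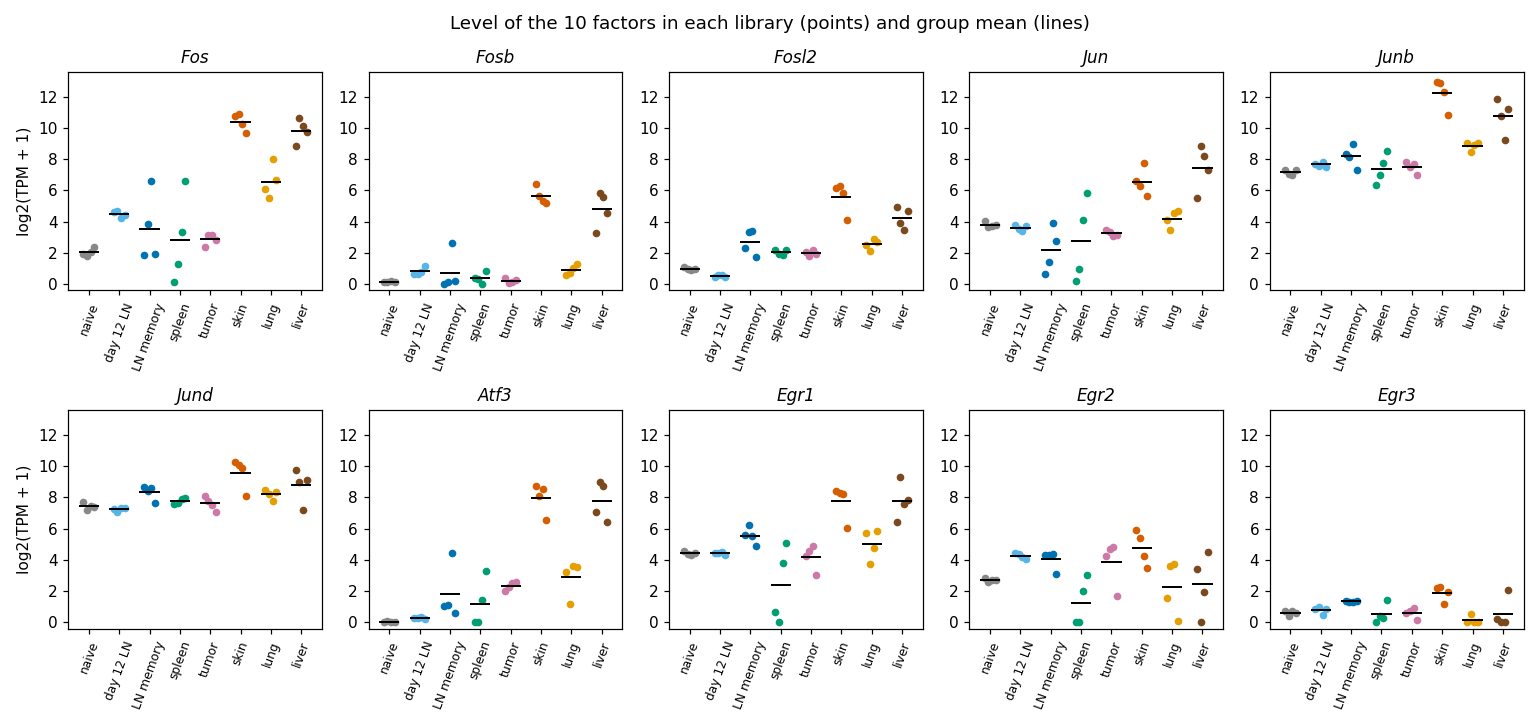
Level of each of the 10 factors as log2(TPM + 1), 1 panel per gene, with 4 libraries (points) and the group mean (line) in each of the 8 groups. The means of skin and liver stand above those of the other groups for Fos, Fosb, Fosl2, Jun, Junb, Jund, Atf3 and Egr1, though not all of those differences were called. Egr2 and Egr3 do not follow that pattern in liver.

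Fos, the founding partner of Jun in AP-1 (chr12:85473890-85477273, plus strand, 4 exons), had the widest range of the 10. Its level in skin was 1743.37, 1951.92, 1241.84 and 825.42 TPM in replicates 1 to 4. In liver it was 455.77, 1594.76, 1093.45 and 850.8 TPM, and in lung 66.99, 44.99, 253.43 and 101.21 TPM. Lung thus lay below every skin and liver library. The highest of the 4, lung replicate 3, was the lung library with the most B cell, myeloid and hepatocyte RNA, whose part was not tested. Lymph node memory cells had 2.55, 13.44, 94.72 and 2.8 TPM, so a single library, replicate 3, reached the range of lung. Spleen showed the same unevenness, with 0.11, 1.42, 9.22 and 95.96 TPM. The groups with even levels were naive (2.52 to 4.22 TPM), tumor (4.28 to 7.84 TPM) and the day 12 lymph node (17.75 to 24.49 TPM). Fos was higher in skin than in lymph node memory by 6.87 ± 0.90 (SE, adjusted p = 9.45e-06) and higher in liver by 6.28 ± 0.90 (adjusted p = 3.73e-05). It was 3.02 ± 0.90 above lymph node memory in lung and did not pass (adjusted p = 0.153), but passed without lymph node memory replicate 3 (4.03, adjusted p = 0.0327). Over the group order of skin, liver, lung, day 12 lymph node, lymph node memory, tumor, spleen and naive, only the step from liver to lung (3.26, adjusted p = 0.0182) was called between neighbours.

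Fosb, a paralog of Fos with the same leucine zipper (chr7:19302696-19310051, minus strand, 4 exons), was detected mainly in skin and liver. Its level was 86.07, 50.04, 39.41 and 36.08 TPM in skin and 8.61, 56.2, 46.12 and 22.81 TPM in liver. All other libraries lay at or below 1.45 TPM, except lymph node memory replicate 3 at 5.22 TPM. Skin was above lymph node memory by 4.94 ± 0.48 (adjusted p = 6.91e-08) and liver by 4.08 ± 0.48 (adjusted p = 3.26e-06). In lung, at 0.49 to 1.45 TPM, the difference was 0.16 ± 0.48 (95% interval -0.81 to 1.14). The step from liver to lung was 3.91 (adjusted p = 1.29e-05) and the other neighbouring groups were not called.

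Fosl2, also known as Fra-2 (chr5:32135801-32157842, plus strand, 4 exons), was the Fos family gene whose level also differed between the lymph node groups. It had 70.63, 77.47, 55.88 and 16.04 TPM in skin, 28.99, 13.94, 10.17 and 24.71 TPM in liver, and 3.97, 8.89, 9.66 and 2.34 TPM in lymph node memory. Lung was at 3.41 to 6.43 TPM, spleen and tumor at 2.52 to 3.6 TPM, naive at 0.83 to 1.11 TPM and the day 12 lymph node at 0.34 to 0.49 TPM. No day 12 library reached a lymph node memory library. Fosl2 was higher in lymph node memory than on day 12 by 2.19 ± 0.41 (adjusted p = 0.000747), between 2 groups that shared the mechanical dissociation. Skin was above lymph node memory by 2.90 ± 0.41 (adjusted p = 2.79e-05) and liver by 1.55 ± 0.41 (adjusted p = 0.00606).

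Junb, an AP-1 subunit that often opposes Jun (chr8:84974484-84978718, minus strand, 1 exon), was the most abundant of the 10 in skin. Skin libraries had 7991.63, 7594.3, 5161.79 and 1796.45 TPM, and by its mean Junb ranked 13 of 46517 genes there, against 1013 in naive cells. Liver had 3712.5, 1731.12, 597.68 and 2380.54 TPM and lung 523, 352.87, 487.45 and 534.61 TPM. The lowest liver library still lay above the highest lung library. Lymph node memory had 320.4, 283.54, 506.6 and 159.62 TPM, spleen 81.34 to 362.3, tumor 124.72 to 222.79, the day 12 lymph node 182.89 to 227.17 and naive cells 128.35 to 159.12. Junb was higher than in lymph node memory by 4.05 ± 0.47 in skin (adjusted p = 1.62e-06) and by 2.57 ± 0.47 in liver (adjusted p = 0.000394). The difference for lung was 0.68 ± 0.47 (adjusted p = 0.669). The steps from skin to liver (1.49, adjusted p = 0.0434) and from liver to lung (1.89, adjusted p = 0.0105) were called and the lower ones were not.

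Jun, the prototype AP-1 subunit (chr4:95049034-95052222, minus strand, 1 exon), was the one AP-1 gene whose mean was highest in liver. Liver had 44.8, 465.05, 293.7 and 154.42 TPM and skin 95.13, 77.8, 213.78 and 48.04 TPM, and the ranges overlapped. Lung had 9.82 to 24.78 TPM, naive cells 11.57 to 15.78, the day 12 lymph node 9.31 to 12.56 and tumor 7.4 to 9.83. Lymph node memory had 0.56, 1.6, 13.76 and 5.68 TPM and spleen 0.14, 0.99, 15.96 and 55.99 TPM, so libraries of both groups lay below the naive cells and 2 of spleen lay above them. Jun was higher than in lymph node memory by 5.31 ± 0.82 in liver (adjusted p = 7.84e-05) and by 4.40 ± 0.82 in skin (adjusted p = 0.000844). No neighbouring pair in the order of Jun levels was called.

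Jund, the Jun protein that resting cells carry (chr8:70698949-70700616, plus strand, 1 exon), had the narrowest range of group means among the AP-1 genes. It had 1236.41, 1078.43, 938.55 and 278.01 TPM in skin, 878.18, 517.09, 145.48 and 566.86 TPM in liver, and 404.06, 333.37, 387.24 and 196.64 TPM in lymph node memory. The remaining groups lay between 134.63 and 362.98 TPM. The difference between skin and lymph node memory was 1.27 ± 0.41 (adjusted p = 0.0562) and did not pass, while without skin replicate 4 it was 1.76 (adjusted p = 0.00395). For liver it was 0.47 ± 0.41 (adjusted p = 0.414), and it passed without liver replicate 3 (adjusted p = 0.0412). The Jund exon overlaps the gene Gm11175 on the opposite strand, whose level ran from 266.4 to 378.85 TPM in naive cells and from 556.38 to 2227.75 TPM in skin. Whether counting used strand is not stated, so reads of both genes cannot be told apart and the Jund level is uncertain.

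Atf3, a stress-induced repressor of the ATF family (chr1:191170296-191218039, minus strand, 4 exons), was nearly absent from naive and day 12 cells. Naive cells had 0 to 0.06 TPM and the day 12 lymph node 0.13 to 0.27 TPM. Skin had 421.89, 274.29, 377.44 and 94.78 TPM and liver 135.17, 497.71, 420.38 and 85.92 TPM. Lung lay far below both, at 8.41, 1.2, 11.4 and 10.74 TPM, and tumor at 3.03 to 4.87 TPM. Lymph node memory had 1.09, 1.19, 20.21 and 0.53 TPM and spleen 0, 0, 1.7 and 8.65 TPM, so the libraries high for Fos were again the high ones. Atf3 was higher than in lymph node memory by 6.19 ± 0.73 in skin (adjusted p = 1.88e-06) and by 6.00 ± 0.73 in liver (adjusted p = 4.93e-06). Lung differed from lymph node memory by 1.09 ± 0.73 (adjusted p = 0.656) and from liver by 4.91 (adjusted p = 0.000169).

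Egr1, the most widely induced Egr gene (chr18:34859823-34864984, plus strand, 2 exons), was high in skin and liver with a weaker separation. Skin had 346.84, 306.22, 300.55 and 66.03 TPM and liver 84.89, 635.97, 188.44 and 225.61 TPM. Lymph node memory had 47.17, 73.45, 45.29 and 28.4 TPM, so only skin replicate 4 fell into its range. Lung had 12.19 to 55.96 TPM, tumor 7.08 to 28.88, naive cells 18.46 to 22.41, the day 12 lymph node 18.71 to 21.59 and spleen 0.6, 0, 12.86 and 32.3. The difference from lymph node memory was 2.23 ± 0.76 in liver (adjusted p = 0.026) and 2.20 ± 0.76 in skin (adjusted p = 0.0738), almost the same size on different sides of the threshold. The liver call was lost without lymph node memory replicate 1 (adjusted p = 0.0535), lymph node memory replicate 4 (0.068) or liver replicate 2 (0.117), and the skin difference passed without skin replicate 4 (2.76, adjusted p = 0.0369).

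Egr2 and Egr3, which restrain T cell activation and are targets of NFAT, did not share the pattern in liver. Egr2 (chr10:67535475-67542188, plus strand, 2 exons) had 58.38, 41.63, 18.2 and 10.04 TPM in skin but 9.51, 0, 2.79 and 21.87 TPM in liver and 2, 11.07, 12.41 and 0.04 TPM in lung. Lymph node memory had 19.16, 19, 19.41 and 7.67 TPM and the day 12 lymph node 15.32 to 21.14 TPM. Liver and lung means were thus below both lymph node groups, by 1.57 ± 0.84 in liver (adjusted p = 0.156) and 1.79 ± 0.84 in lung (adjusted p = 0.499) against lymph node memory. Tumor had 17.83, 25.21, 27.4 and 2.22 TPM, naive cells 5.04 to 6.03 and spleen 0, 0, 2.94 and 7.24. Egr3 (chr14:70077203-70082614, plus strand, 2 exons) stayed at or below 3.83 TPM in every library. It had 3.52, 3.83, 1.22 and 2.93 TPM in skin, 1.47 to 1.6 TPM in lymph node memory, 0.34 to 0.99 TPM in naive and day 12 cells, and was listed at 0 in 3 of 4 lung and 2 of 4 liver libraries. Without liver replicate 4, both passed as lower in liver than in lymph node memory (Egr2 -2.26, adjusted p = 0.0439, and Egr3 -1.28, adjusted p = 0.00256), in a fit where 29.4% of all genes were lower.

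Counted together, 6 of the 10 members were called higher in skin than in lymph node memory and 0 lower, in a comparison where limma called 3.18% of all genes tested higher and 4.31% lower. The members' median difference was 3.48, against -0.25 over all genes. In liver 7 were called higher than in lymph node memory, the same 6 genes and Egr1, and 0 lower, where 3.66% of all genes were higher and 28.5% lower. The medians were 2.40 for the members and -0.63 for all genes. Under 11 other ways of fitting, Fos, Fosb and Atf3 were called in liver in all 11, Jun and Junb in 10, Fosl2 in 9 and Egr1 in 4. The 6 skin calls held in all 11. In lung limma called 0 members higher (background 0.147%) and 0 lower (0.314%) at the adjusted threshold, with medians of 0.03 and -0.13. At an unadjusted p under 0.05 were 4 members, as were 9.58% of all genes: Fos (3.02) and Jun (2.03) were above lymph node memory, and Egr2 (-1.79) and Egr3 (-1.21) below it. Egr3 was lower in lung without overlap, as were 4.15% of all genes. These 3 comparisons share the 4 lymph node memory libraries. The genes called in skin and in liver were also those whose libraries did not overlap with lymph node memory, 6 in skin (3.42% of all genes) and 7 in liver (1.68%).

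**Figure D2:**
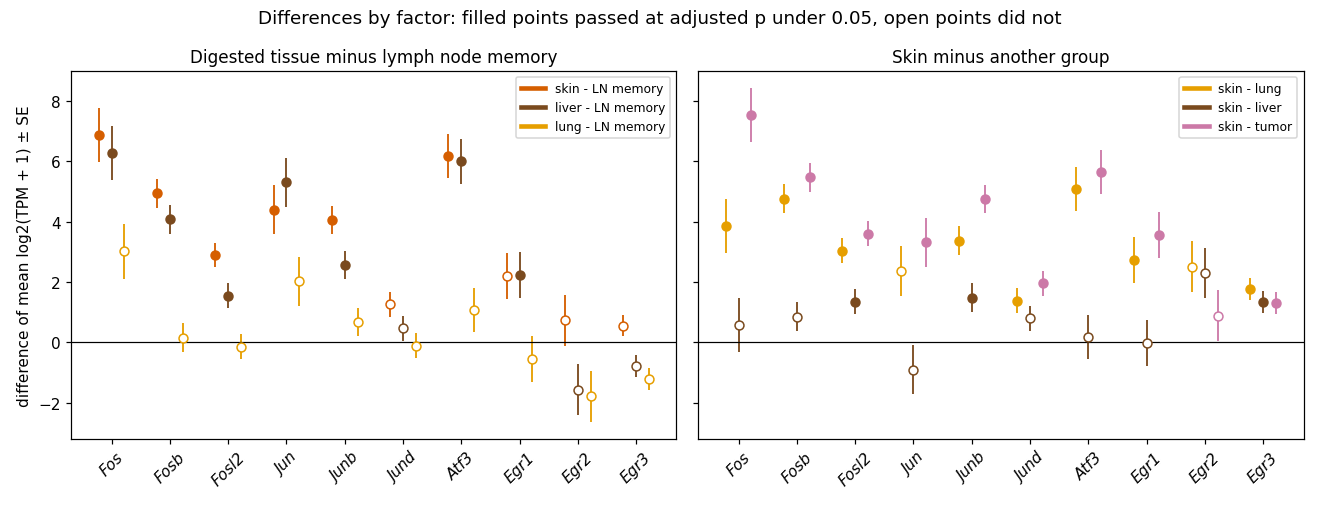
Differences of mean log2(TPM + 1) for each factor, with bars for 1 SE: on the left skin, liver and lung against lymph node memory, on the right skin against lung, liver and tumor. On the left, filled points lie at 2.90 to 6.87 for skin and at 1.55 to 6.28 for liver, and every lung point is open.

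Skin against lung compared 2 tissues digested at the same temperature with different enzymes and times. Of the 10 members 8 were called higher in skin (background 2.83%), and 8 had no overlap of libraries (2.54% of all genes). Jun (2.37 ± 0.82, adjusted p = 0.104) and Egr2 (2.51 ± 0.84, adjusted p = 0.0901) were not called. The 8 without overlap were not the same genes: they included Jun and left out Jund and Egr2. Fos differed by 3.85 ± 0.90 (adjusted p = 0.00854), Fosb by 4.77 ± 0.48 (adjusted p = 1.34e-07), Junb by 3.38 ± 0.47 (adjusted p = 2.05e-05) and Atf3 by 5.10 ± 0.73 (adjusted p = 2.84e-05). Egr3 differed by 1.77 ± 0.36 (adjusted p = 0.00197). The calls of Jund (1.38, adjusted p = 0.0492) and Egr1 (2.74, adjusted p = 0.0309) were weak. Jund was lost when any library but skin replicate 4 was left out (adjusted p up to 0.183), and Egr1 without lung replicates 2 or 3 or skin replicates 1, 2 or 3 (up to 0.118). With only these 2 groups in the fit, 3 members were called, Fos, Fosb and Atf3, where 0.187% of all genes were higher.

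Skin against liver compared the 2 groups digested with collagenase IV. Here 3 members were called higher in skin (background 7.33%): Fosl2 (1.35 ± 0.41, adjusted p = 0.0346), Junb (1.49 ± 0.47, adjusted p = 0.0434) and Egr3 (1.34 ± 0.36, adjusted p = 0.0153). Their libraries overlapped between the tissues. All 3 calls were lost without skin replicates 1 or 2 or liver replicates 2 or 3, and those of Fosl2 and Junb also without skin replicate 3. In turn Egr2 passed without skin replicate 4 or liver replicates 1 or 4, and Jund without skin replicate 4, so 0 to 5 members were called. The other 7 did not pass. For 6 of them the unadjusted 95% interval includes 0: Fos -1.26 to 2.44, Atf3 -1.30 to 1.68, Egr1 -1.59 to 1.52, Jun -2.58 to 0.78, Fosb -0.12 to 1.83 and Jund -0.04 to 1.65. That of Egr2, 0.57 to 4.03, lies above 0, with an adjusted p of 0.0797. All genes had a median of 0.46 here and the members 0.83.

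Skin was also set against the 2 tissues whose dissociation is not given. All 10 members were called higher in skin than in spleen (background 4.33%), with differences from 1.38 for Egr3 to 7.57 for Fos. Against tumor 9 were called higher (background 3.79%), all but Egr2 (0.89 ± 0.84, adjusted p = 0.671), with differences from 1.31 for Egr3 to 7.55 for Fos. The Egr3 calls were the weakest, lost against spleen without spleen replicate 1 (adjusted p = 0.0502) and against tumor without tumor replicate 4 or skin replicates 1 or 2 (up to 0.0761). Skin libraries did not overlap with spleen for 8 members (3.4% of all genes) or with tumor for 9 (6.49%). All 5 comparisons of skin with another group share the 4 skin libraries. Tumor cells had Fos at 4.28 to 7.84 TPM against 825.42 to 1951.92 TPM in skin, and the part of dissociation in this was not tested.

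Between the groups that were not digested or whose dissociation is not given, few members were called. From naive to the day 12 lymph node limma called 0 members higher (background 5.95%) and 0 lower (5.14%), with 1, Fos, at an unadjusted p under 0.05 (2.41 ± 0.90, adjusted p = 0.0869). The even levels in both groups left 5 members higher without overlap (19.5% of all genes) and 1, Fosl2, lower without overlap (31.7%). Egr2 was among the former, at 5.04 to 6.03 TPM in naive and 15.32 to 21.14 TPM in day 12 cells (1.55 ± 0.84, adjusted p = 0.284). With only these 2 groups in the fit, whose spread is small, Fos, Fosb, Junb, Atf3 and Egr2 passed as higher and Fosl2 as lower, where 20.8% of all genes were higher and 33.6% lower. From day 12 to memory in the lymph node only Fosl2 was called (background 4.42%), and 5 members were higher without overlap (26.2%). Those 5 were Fosl2, Jund, Atf3, Egr1 and Egr3.

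Spleen against naive cells, both from spleen, had 0 members called higher (background 3.62%) and 0 lower (2.46%) by limma, and 2 at an unadjusted p under 0.05. Tumor against spleen also had 0 higher (background 3.42%) and 0 lower (2.82%), and 2 at an unadjusted p under 0.05, Egr1 (1.81 ± 0.76, adjusted p = 0.182) and Egr2 (2.61 ± 0.84, adjusted p = 0.0618). These calls changed without spleen replicate 4. Then Egr1 was lower in spleen than in naive cells (-2.92, adjusted p = 0.0103), and Egr1 (2.71, adjusted p = 0.0192) and Egr2 (3.21, adjusted p = 0.0257) were higher in tumor than in spleen. Egr2 also passed without tumor replicate 4 (3.34, adjusted p = 0.019). Spleen replicate 4 had 28660 TPM of B cell genes and 8934 TPM of myeloid genes, against 3395 to 11380 and 791.1 to 1351 in the other 3, and the part of those cells in its values was not tested.

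The makeup of the 10 changed with their sum. The summed level was 316.4 to 414.2 TPM in naive cells and 3174 to 12050 TPM in skin, with 2798 to 5512 in liver, 734 to 1052 in lung and 405.4 to 1104 in lymph node memory. Jund made up 45.3% to 51.0% of the sum in naive cells and 8.76% to 11.2% in skin. Fos made up 0.691% to 1.13% in naive cells, 14.5% to 26.0% in skin, 8.51% to 39.1% in liver and 6.13% to 24.4% in lung. The leading gene was Jund in 4 of 4 naive libraries and in 3 of 4 each of spleen, tumor and lymph node memory. It was Junb in all 4 libraries of the day 12 lymph node, skin and lung and in 3 of liver, where Fos led in the other.

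**Figure D3:**
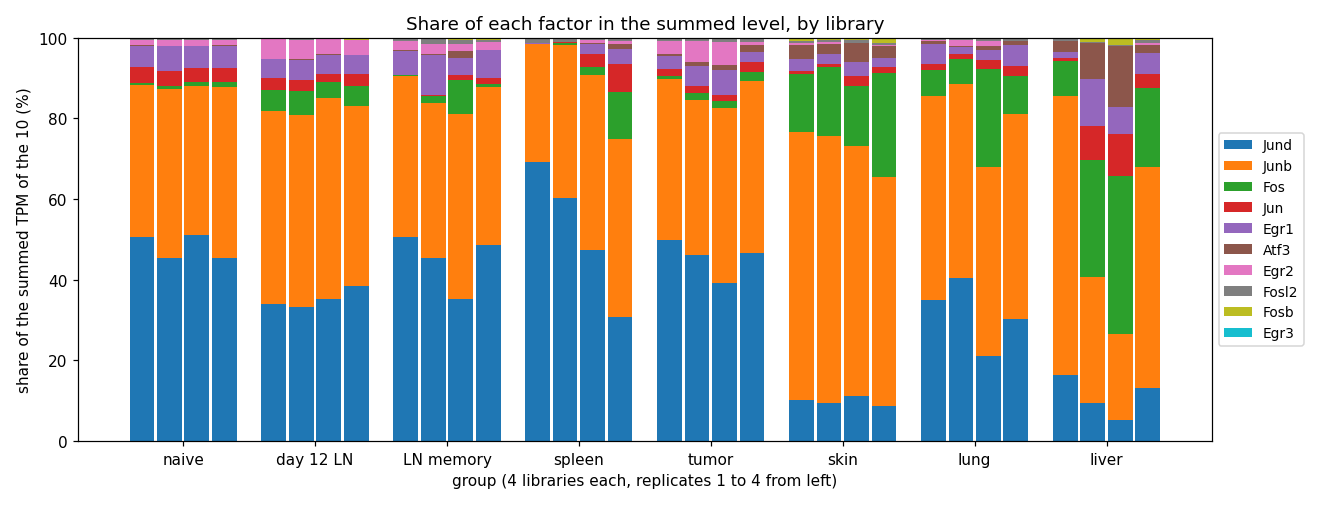
Share of each factor in the summed TPM of the 10, in percent, for each of the 32 libraries in group order. Jund and Junb fill most of every naive, spleen and tumor bar, and Fos takes 14.5% to 26.0% of the skin bars.

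Liver and skin were also read library by library, since T cell content varied most there. Liver replicate 1 had T cell identity near the median over libraries (0.989 of it) and 851.4 TPM of hepatocyte genes, the least of its group. In it 8 of the 10 members were above every lymph node memory library, all but Egr2 and Egr3. The other liver libraries had 8, 7 and 10 members above, the skin libraries 10, 10, 8 and 7, and the lung libraries 2, 0, 2 and 3. Below every lymph node memory library were 1, 2, 3 and 0 members in liver replicates 1 to 4, 0, 0, 1 and 0 in skin and 2 in each lung library. The share of all genes beyond those libraries was not computed, so these counts have no background. When the 6 libraries poor in T cell identity were left out, which leaves liver with 1 library, 8 members were called higher in skin than in lymph node memory (5.12% of all genes) and 6 in liver (1.64%), where the lone library was assumed to vary like the other groups. The 6 in liver were not the same genes as before: Jun and Egr1 (0.87) were no longer called, and Jund was. In that fit Fos was called higher (0.917% of all genes) and Egr3 lower (2.01%) in lung than in lymph node memory. Per 1000 TPM of T cell identity the 10 members summed to 8.16 to 9.45 TPM in naive cells, 22.6 to 29.6 in lymph node memory, 35.4 to 65.0 in lung, 275 to 562 in skin and 189 to 1191 in liver. Those highest liver values belong to libraries rich in hepatocyte and myeloid genes, whose part was not tested.

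Within a group, some members deviated together and others did not. Over the 32 libraries, the deviations from the group means correlated at a median r of 0.342 over the 45 pairs of members. The highest values were 0.865 for Junb and Jund, 0.84 for Fos and Atf3 and 0.818 for Fos and Jun, and the lowest was -0.145 for Fosb and Egr2, as descriptions over libraries that share a tissue and a procedure within each group. The pooled SD of the members on the log2 scale was 0.146 in naive and 0.162 in day 12 cells, below the 0.387 and 0.303 of all genes. It was 1.17 in lymph node memory and 1.64 in spleen, above the 0.615 and 0.892 of all genes. In lymph node memory the high library was replicate 3 and in spleen it was replicate 4. Both also carried the heat shock gene Hspa1a, at 54.81 and 54.58 TPM, where the other 3 libraries of each group had at most 0.2 and 0.69 TPM.

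Hspa1a did not run in parallel with Fos everywhere. Tumor libraries had 36.2 to 106.02 TPM of Hspa1a with Fos at 4.28 to 7.84 TPM. Skin had 141.58 to 1771.64 TPM of Hspa1a, liver 22.84 to 213.91 and lung 4.96 to 49.03. Naive and day 12 libraries had at most 0.42 TPM. The part of heat shock in the levels of the 10 factors was not tested.

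**Figure D4:**
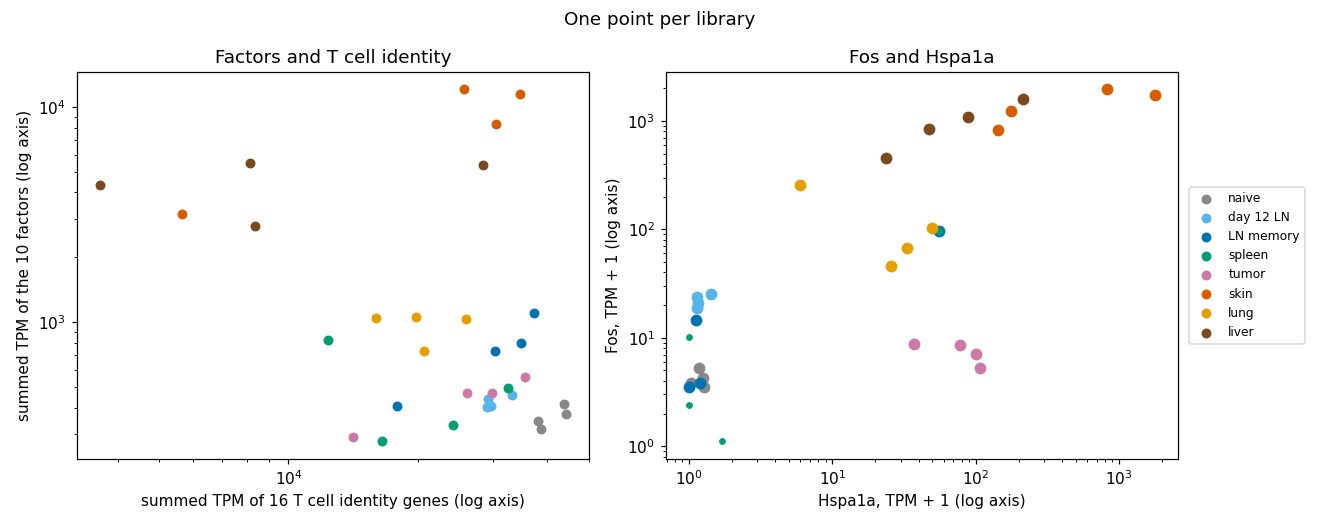
Each point is 1 library, on log axes: on the left the summed TPM of the 10 factors against that of 16 T cell identity genes, on the right Fos against Hspa1a, both as TPM + 1. On the left, skin libraries lie at 3174 to 12050 TPM and liver libraries at 2798 to 5512 TPM, above all others. Skin replicate 4 and liver replicates 2, 3 and 4 are poor in T cell identity. On the right, the tumor libraries have Hspa1a at 36.2 to 106.02 TPM with Fos at 4.28 to 7.84 TPM. Lymph node memory replicate 3 and spleen replicate 4 coincide, at 54.81 and 54.58 TPM of Hspa1a.

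Other genes of the same response were counted from lists chosen with earlier results known. Against lymph node memory, 3.18% of all genes were called higher in skin and 3.66% in liver. Of 30 other immediate early genes 21 were called higher in skin than in lymph node memory, with a median of 2.23, and 18 higher and 1 lower in liver. Among them Nr4a1, an orphan nuclear receptor that marks receptor signalling, differed by 5.66 ± 0.81 in skin (adjusted p = 3.28e-05), and Dusp1, a MAP kinase phosphatase, by 5.40 ± 0.77 (adjusted p = 3.02e-05). Of 24 AP-1 partners and other leucine zipper factors 7 were called higher in skin, led by Crem (3.55 ± 0.50, adjusted p = 3.02e-05), a cyclic AMP responsive factor, and Cebpb (3.45 ± 0.59, adjusted p = 0.000316). In liver 6 of these were higher and 7 lower, the latter near the 28.5% of all genes called lower there. Of 16 tested partners of Egr and upstream kinases and factors 0 were called in skin by limma (1 at an unadjusted p under 0.05), and in liver 1 was higher and 8 lower, against the same 28.5%. In lung no gene of these lists was called, and 1 to 4 per list had an unadjusted p under 0.05.

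Target genes were counted in the same comparisons. Of 25 target genes of AP-1, Egr and NFAT in activated T cells 4 were called higher in skin than in lymph node memory, led by Ifng, the gene of interferon gamma (3.89 ± 0.59, adjusted p = 6.42e-05). Nfkbid (3.32 ± 0.56, adjusted p = 0.000254) and Cd69, a surface marker of activation and retention (2.26 ± 0.46, adjusted p = 0.00225), followed. In liver 2 were higher and 3 lower, where 28.5% of all genes were lower. From naive to day 12, 14 of the 25 were higher (5.95% of all genes). No member was called in that fit. With only these 2 groups in the fit, 5 members passed as higher, where 20.8% of all genes did. In the fit of all groups Gzmb, a cytotoxic granule protease, was higher by 8.49 ± 0.55 (adjusted p = 3.24e-12) and Ifng by 4.97 ± 0.59 (adjusted p = 3.38e-07). From spleen to tumor, with no member called in the fit of all groups, 13 were higher (3.42% of all genes) and 1 lower (2.82%). Of 20 heat shock and stress genes 10 were higher in skin than in lymph node memory, and 6 were higher and 1 lower in liver. Of the 16 T cell identity genes 0 were called in skin by limma (5 at an unadjusted p under 0.05), and 12 were lower in liver, against 28.5% of all genes.

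By group means, Egr3 (r = 0.641) and Egr2 (r = 0.435) were least like the mean of the members, and Junb was most like it (r = 0.984). That mean includes the gene itself, so these r are not comparable with those of other genes below. Over the 8 groups Fosl2 was nearest to Jund (r = 0.987) and Fosb to Junb (r = 0.972), while Egr2 was nearest to Egr3 (r = 0.741) and farthest from Jun (r = 0.081). Over the 45 pairs the median r was 0.854 with all 8 groups and 0.264 without skin and liver. Among 7169 other genes of at least 3 in mean log2(TPM + 1), the 6 most like the mean pattern of the members were Nr4a1 (r = 0.990), Zc3h12a (0.978), Map1lc3a (0.970), Coq10b (0.968), Tnfaip3 (0.968) and Spty2d1 (0.966). Without skin and liver, r was 0.909, 0.801, 0.764, 0.618, 0.834 and 0.595 in that order. Nr4a1 averaged 1700 TPM in skin, 679.6 in liver, 22.13 in lung and 49.66 in lymph node memory, and 4.28 to 17.67 in the other 4 groups.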

How the data were processed

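The 32 libraries of bulk RNA sequencing form groups of 4. Reads were aligned with Bowtie to mm10, per the submitters' processing notes. For the program's version, annotation, counting and use of strand, nothing is stated in the sources used here. The table the authors deposited holds natural log values of TPM + 1. This was read from the values: each converts back to a multiple of 0.01 TPM and each library sums to 999999.06 to 1000000.8. It holds no read counts, so depth and counting precision are unknown.

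Tests used log2(TPM + 1). Genes entered if 4 or more libraries had at least 1 TPM, which 19738 of 42409 detected genes and all 10 members met. All 8 groups entered 1 linear model in limma 3.58.1 (R 4.3.3) with an abundance trend and 24 residual degrees of freedom. P-values of each of 11 comparisons were adjusted by Benjamini-Hochberg over all genes tested. The fit was also run on simulated data, and the outcome of that run is not given here. Values, markers and figures were computed with Python 3.11.15, NumPy 2.4.6, pandas 2.3.3 and Matplotlib 3.10.9. Gene positions come from the GENCODE annotation of mm10 and promoters from RefSeq.

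The members, listed by name, and the gene lists were chosen with earlier results of these data known. All members are described. Of each list, counts and up to 3 called genes with the largest change in skin against lymph node memory or day 12 against naive are given, printed in part for length. Nr4a1 also came from the rule for likeness, the 6 genes with the highest correlation to the members' mean pattern. Heat shock values per library and the gene opposite Jund were chosen after their values were seen.

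Alternatives were other filters, only the 2 groups compared, a pseudocount of 0.1, array or group weights, quantile normalization, a replicate block, T cell identity as a covariate, removal of the 6 libraries below 0.5 of the median T cell identity, rescaling without mitochondrial and marker genes, and leaving out each library. No 2 libraries were identical.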

Additional observations from a re-analysis of the deposited data

Results flagged for a closer look

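Of 80 combinations of a member and a group, 8 had 1 library far from the other 3, by a gap to its nearest neighbour above Dixon's 95% critical value, and chance alone would give about 1 in 20. In lymph node memory, replicate 3 was high for Fosb (5.22 TPM, the others 0 to 0.13) and Atf3 (20.21 TPM, the others 0.53 to 1.19), and replicate 4 was low for Egr2 (7.67 TPM, the others 19 to 19.41). Replicate 4 also had the most B cell marker RNA of its group, 10600 TPM, and its part was not tested. Skin replicate 4, the skin library with the least T cell identity, was low for Egr1 (66.03 TPM, the others 300.55 to 346.84). Lung replicate 2 was low for Atf3 (1.2 TPM, the others 8.41 to 11.4) and was the lung library with any Egr3 (0.41 TPM, the others listed at 0). Liver replicate 4 was high for Egr3 (3.11 TPM, the others 0 to 0.13). Naive replicate 3 was high for Fosb at 0.13 TPM against 0.09 in each of the others, a gap of 4 steps of the table's rounding to 0.01 TPM.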

How the results depend on the processing

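Every alternative run called 6 to 8 members higher in skin than in lymph node memory, and 7 to 9 higher in skin than in tumor. The counts for skin against lymph node memory, spleen and tumor stayed within 1.5 times of the reported ones, except for spleen with only the 2 groups compared (5 members). Leaving out 1 library gave 0 to 5 members for skin against liver, 0 to 2 for tumor against spleen, 0 to 1 higher for lung, 0 to 2 lower for liver and 0 to 1 lower for spleen against naive. With only the 2 groups compared, liver against lymph node memory had 4 (0.461% of all genes) and skin against lung 3 (0.187%). Skin against liver had 0 (0.0203%) and spleen against naive 1 (3.74%). Day 12 against naive had 5 higher and 1 lower, and memory against day 12 had 4. With group weights the counts were 5 for skin against lung (1.77% of all genes) and 0 for skin against liver (0.562%). They were 1 for tumor against spleen, and 1 higher and 1 lower for spleen against naive. They were 4 and 1 for day 12 against naive and 5 and 1 for memory against day 12. With array weights they were 2 lower for lung, 2 for tumor against spleen, 1 and 1 for spleen against naive, 5 and 1 for day 12 against naive, and 6 and 1 for memory against day 12. Without the 6 libraries poor in T cell identity they were 1 higher and 1 lower for lung, 2 for tumor against spleen, 1 and 3 for spleen against naive, 1 for day 12 against naive and 2 for memory against day 12. Of all genes, 8.23% were higher there for tumor against spleen, 10.8% for day 12 against naive and 13.5% for memory against day 12. For spleen against naive 7.43% were higher and 14.6% lower, and for lung 0.917% and 2.01%. With T cell identity as a covariate skin against liver had 1 (7.17% of all genes), spleen against naive 1 (5.66%) and memory against day 12 had 2 (6.39%). Quantile normalization gave 1 for tumor against spleen (4.83%) and 2 for memory against day 12 (2.96%). Rescaling gave 1 for skin against liver (5.56%). A pseudocount of 0.1 gave 1 lower for liver against lymph node memory, where 31.0% of all genes were lower. Counts of all genes moved too, over the fits with 2 groups, array weights and group weights. For day 12 against naive 20.0% to 22% of genes were higher and 33.6% to 37.3% lower. For memory against day 12 it was 23.7% to 32.4% higher and 10.9% to 14.1% lower. With array and group weights 6.08% and 4.44% were higher for tumor against spleen. For spleen against naive 6.62% and 6.38% were higher and 6.19% and 6.39% lower. With array weights 0.932% were lower for lung. The cause of these moves was not tested. The fits that leave libraries out also hold fewer samples.

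Quantile normalization moved the median of all genes from -0.25 to -0.04 in skin and from -0.63 to -0.08 in liver against lymph node memory, and from 0.46 to 0.04 in skin against liver. Same-numbered libraries deviated together at r over 0.1 in at most 2 of 4 pairs in any comparison, with r up to 0.467 in skin against lymph node memory. Whether the numbers mark shared animals or batches cannot be told from these correlations. A replicate block gave 7 members in skin against lymph node memory (3.23% of all genes) and 2 in skin against liver (7.51%). Elsewhere it gave the reported counts. The filter of 5 TPM gave no value for Egr3, which it removed.

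Every change of sign was in a difference that was not called. With T cell identity as a covariate these were Atf3 in skin against liver (-0.12), Fosl2 (0.07) and Jund (0.16) in lung against lymph node memory, Junb in tumor against spleen (-0.08) and Jund in day 12 against naive (0.03). With array weights they were Egr1 in skin against liver (0.65), Fos (-0.15) and Fosl2 (0.02) in tumor against spleen, and Fosb in memory against day 12 (0.11). Quantile normalization turned Egr3 (-0.15), Fosl2 (0.02) and Jund (0.02) in tumor against spleen. Without those 6 libraries they were Egr1 (1.89) and Jun (1.36) in skin against liver, Fos (-0.46) and Junb (-0.14) in spleen against naive, and Fosl2 (0.04) and Jund (0.09) in tumor against spleen.

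Leaving out 1 library gave these ranges across 0. In tumor against spleen they were -0.87 to 1.28 for Fos, -0.40 to 1.48 for Jun, -0.26 to 0.45 for Junb, -0.32 to 0.02 for Jund, -0.10 to 0.02 for Fosl2 and -0.09 to 0.38 for Egr3. In spleen against naive they were -0.46 to 1.69 for Fos, -0.14 to 0.58 for Junb and -0.39 to 0.08 for Egr3. In lung against lymph node memory they were -0.08 to 0.80 for Fosb, -0.45 to 0.10 for Fosl2 and -0.34 to 0.03 for Jund. In skin against liver they were -0.26 to 0.66 for Atf3 and -0.48 to 0.53 for Egr1. In day 12 against naive Egr1 ran from -0.04 to 0.05, and in memory against day 12 Egr2 ran from -0.34 to 0.08 and Fosb from -0.71 to 0.17.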
